A study of Rattus norvegicus with 8 samples.

Results

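The p53 target and Bcl2 family genes Pmaip1, Bbc3, Bax, Bcl2l1, Bcl2l11, Mcl1, Cdkn1a, Mdm2 and Ccng1 are described here. They were picked by name. A probe set, the group of array probes that reads one transcript, counted for a gene when that gene was its single symbol in the platform annotation. All 9 genes were found, through 12 of the 27596 probe sets, and they are 9 of the 14506 genes named on the array. For a gene with 2 probe sets the one with the higher mean over the 8 arrays was used.

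Livers of male wistar rats aged 6 to 10 weeks were perfused, that is, kept alive outside the body by a buffer pumped through their vessels, and their total RNA was read on 1-colour Affymetrix arrays. The 4 normoosmotic samples received Krebs-Henseleit buffer of 305 mosm/L and the 4 hypoosmotic samples the same buffer at 225 mosm/L, which draws water into cells. All 8 samples carry the time point of 120 min, in a study with perfusions of up to 180 min, and all were isolated livers cut off from blood and nerves. Whether each sample was a different animal is not stated in the labels. The p-values therefore rest on the spread among these 8 samples, some of which can be technical. The 9 hepatocyte markers on the array had a mean between 11.65 and 11.85 log2 units on each of the 8 arrays. Of them 0 passed the test described below, by which 0.558% of all genes were called higher and 1.42% lower. The comparison asks whether these genes differ when the perfusate is hypoosmotic.

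The transcription factor p53 is stabilised after DNA damage and other stress and switches on genes that halt the cell cycle or start apoptosis. Apoptosis through mitochondria is decided among proteins of the Bcl2 family. BH3-only proteins such as Noxa, Puma and Bim bind and block anti-apoptotic members, though not each of them blocks every one. Unless blocked, anti-apoptotic members such as Bcl-xL and Mcl-1 hold the pore-forming effectors Bax and Bak in check. Hepatocytes depend on Bcl-xL and Mcl-1 for survival. Of the genes here, Pmaip1 encodes Noxa, Bbc3 Puma, Bcl2l11 Bim and Bcl2l1 Bcl-xL, while Cdkn1a, Mdm2 and Ccng1 act on the cell cycle and on p53 itself.

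The letters upstream of 3 of these genes are shown. They are Pmaip1, which was called, and Cdkn1a and Ccng1, whose mean values differed in opposite directions. The latter genes hold a p53 element by the rule given below, which leaves out a looser match in Pmaip1. Whether these letters play a part in the values was not tested. Each run is the 250 bases before the transcription start that the RefSeq promoter table of build GRCr8 lists, 5′ to 3′ on the gene's strand. Capitals mark an 8-base variant of the cyclic AMP response element in Pmaip1 and a 20-base p53 element in the other two.
Pmaip1, chr18:62255720-62255969, plus strand: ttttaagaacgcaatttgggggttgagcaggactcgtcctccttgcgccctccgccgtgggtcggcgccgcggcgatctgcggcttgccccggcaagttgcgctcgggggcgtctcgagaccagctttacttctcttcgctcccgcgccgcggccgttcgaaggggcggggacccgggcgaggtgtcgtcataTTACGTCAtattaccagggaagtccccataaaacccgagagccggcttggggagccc
Cdkn1a, chr20:7150682-7150931, plus strand: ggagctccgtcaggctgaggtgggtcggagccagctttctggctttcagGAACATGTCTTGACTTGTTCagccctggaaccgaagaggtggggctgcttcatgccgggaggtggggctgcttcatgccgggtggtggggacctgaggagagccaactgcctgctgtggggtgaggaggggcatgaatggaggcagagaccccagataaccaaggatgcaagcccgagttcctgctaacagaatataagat
Ccng1, chr10:25684877-25685126, minus strand: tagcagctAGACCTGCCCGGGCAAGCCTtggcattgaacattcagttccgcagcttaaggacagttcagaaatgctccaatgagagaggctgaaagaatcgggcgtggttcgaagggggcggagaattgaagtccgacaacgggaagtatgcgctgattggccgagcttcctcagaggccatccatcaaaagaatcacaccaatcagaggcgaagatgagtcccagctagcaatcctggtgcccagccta

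The p53 element was searched for by its consensus as 2 adjoining half-sites of 10 bases, each with its central C and G and at most 1 mismatch, a pattern that reads alike on both strands. It stood in 46 of all 33469 windows of this length, or 0.137%, and in the windows of Cdkn1a, where it begins 201 bases before the start, and Ccng1, where it begins 242 bases before it. A perfect half-site, which the element may contain, was in 6.64% of all windows. The Pmaip1 window holds cggcttgccccggcaagttg, 2 adjoining half-sites with their central C and G. Its second half-site has more than 1 mismatch, so the rule does not count it and it is not in capitals. A looser rule was not tried. The Pmaip1 variant TTACGTCA begins 57 bases before the start and was found in 0.75% of all windows on either strand, and the full cyclic AMP response element TGACGTCA in 1.59%. The motif GTAAACA, bound by FoxO factors, was in the windows of Bcl2l11 and Mdm2 and in 3.21% of all windows on either strand, and the E-box CACGTG in 5.59%. Of the 9 genes 7 had at least 1 window in the table, and Bbc3 and Bax had none. The element rule and the variant were chosen after the sequences were seen, and a match says only that the letters are there.

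Among the genes of cell death, Pmaip1 rose under hypoosmotic perfusion, while Bbc3 and Bcl2l11 did not pass the test. Pmaip1 (probe set 10802375) read 4.77, 4.88, 4.59 and 4.88 log2 units in normoosmotic replicates 1 to 4 and 5.03, 5.80, 5.63 and 5.77 in hypoosmotic replicates 1 to 4. Every hypoosmotic sample lay above every normoosmotic one, and hypoosmotic replicate 1 lay closest to them. The group means were 4.78 ± 0.14 and 5.56 ± 0.36 (SD, n = 4 each). The difference was 0.78 ± 0.16 log2 units (SE), which is 1.71-fold (95% bounds 1.34 and 2.19; limma, adjusted p = 0.0281). It was the 1 member of the 9 called higher at an adjusted p under 0.05, where 81 of all 14506 genes or 0.558% were, and 0 of the 9 were called lower, where 1.42% of all genes were. The call was lost without normoosmotic replicates 1 (adjusted p = 0.0747) and 3 (0.0900) and without hypoosmotic replicates 2 (0.106), 3 (0.0786) and 4 (0.0554), with log2 changes between 0.70 and 0.77. Without hypoosmotic replicate 1, the change was 0.95 (adjusted p = 0.00607).

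**Figure D1:**
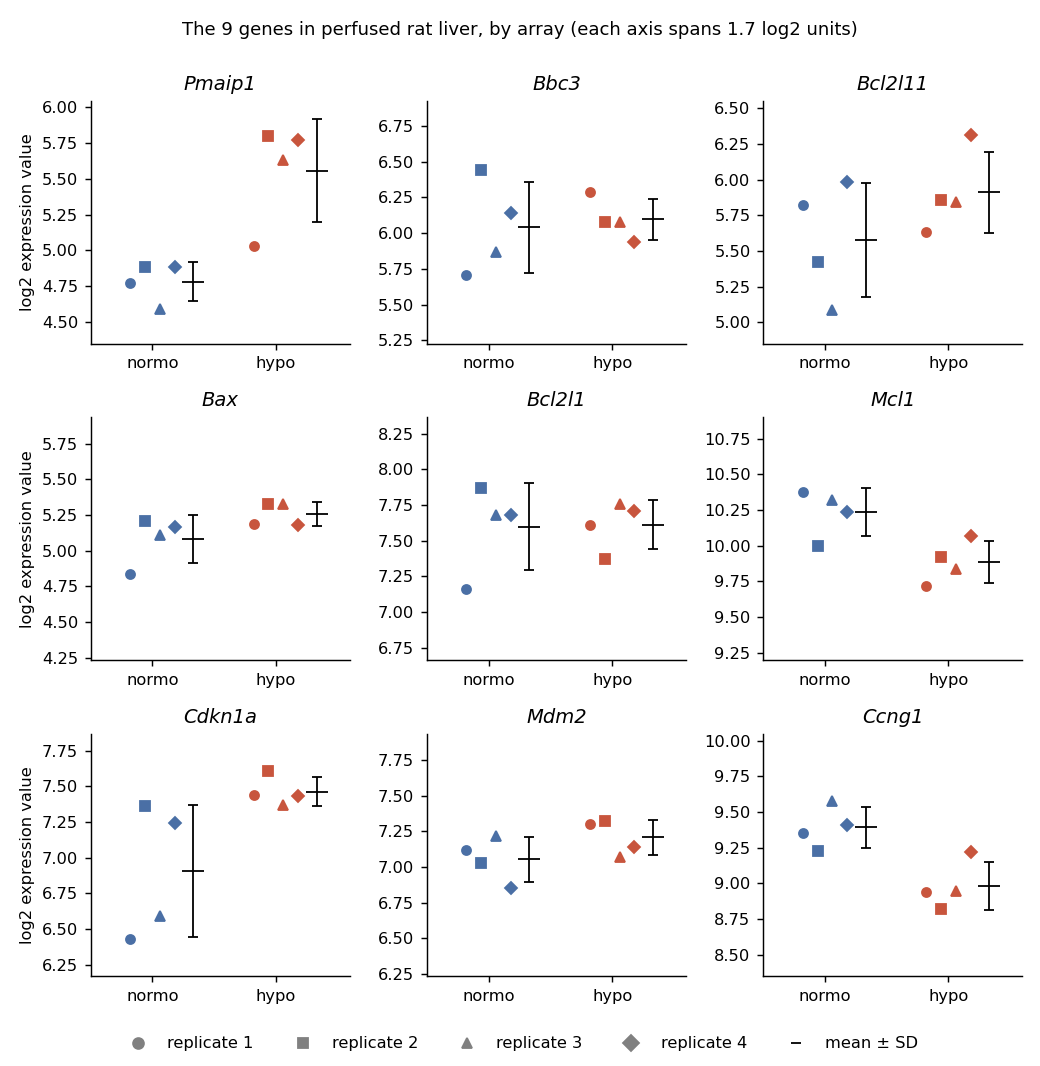
Log2 expression value of each of the 9 genes on the 8 arrays. Points are single arrays, with blue for normoosmotic and red for hypoosmotic, the marker shape gives the replicate number, and the black bar is the mean ± SD of 4 arrays. All 4 hypoosmotic values of Pmaip1 lie above its normoosmotic values, and Cdkn1a spreads from 6.43 to 7.36 among normoosmotic arrays.

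Bbc3 (probe set 10940588), a direct p53 target that encodes Puma, read 5.71, 6.44, 5.87 and 6.14 in normoosmotic samples and 6.29, 6.08, 6.08 and 5.94 in hypoosmotic ones. The hypoosmotic values all lay inside the normoosmotic range. The log2 change was 0.06 (95% interval −0.27 to 0.39; limma, adjusted p = 0.912), so a rise of the size seen for Pmaip1 lies outside the interval. Without normoosmotic replicate 1 the change was −0.05, and without hypoosmotic replicate 1 it was −0.01.

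Bcl2l11 (probe set 10839655), whose product Bim is a BH3-only protein that FoxO factors can drive, read 5.82, 5.42, 5.09 and 5.98 in normoosmotic samples and 5.63, 5.86, 5.84 and 6.31 in hypoosmotic ones. The groups overlapped, with hypoosmotic replicate 4 the highest of all 8. The log2 change was 0.33 (95% interval −0.09 to 0.75; limma, adjusted p = 0.484), and leaving out normoosmotic replicate 3 or hypoosmotic replicate 4 brought it to 0.17 and 0.20.

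The effector gene Bax (probe set 10738460) read 4.84, 5.21, 5.11 and 5.17 in normoosmotic samples and 5.19, 5.33, 5.33 and 5.18 in hypoosmotic ones, a log2 change of 0.175 (95% interval −0.07 to 0.42; limma, adjusted p = 0.548). The groups overlapped narrowly, and normoosmotic replicate 1 was the lowest array, without which the change was 0.09. Its other probe set (10721834) gave 4.18, 4.15, 4.80 and 4.25 against 4.30, 4.29, 4.31 and 4.15, a change of −0.08 (95% interval −0.39 to 0.23), and the mean of both probe sets one of 0.05. The direction therefore depended on the probe set, and neither passed the test.

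Both anti-apoptotic members stayed short of the threshold. Bcl2l1 (probe set 10724228) read 7.16, 7.87, 7.68 and 7.68 in normoosmotic samples and 7.61, 7.37, 7.76 and 7.71 in hypoosmotic ones, and its log2 change was 0.015 (95% interval −0.32 to 0.35; limma, adjusted p = 0.981). Its other probe set (10850826) had a mean of 6.20 ± 0.30 and 6.32 ± 0.13 (SD, n = 4 each), a change of 0.12 (95% interval −0.19 to 0.44). In both probe sets normoosmotic replicate 1 was the lowest of the 8 arrays. Without that array the change of the first was −0.13.

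Mcl1 (probe set 10940458), which encodes a short-lived protein, read 10.38, 10.00, 10.32 and 10.24 in normoosmotic samples and 9.72, 9.92, 9.84 and 10.07 in hypoosmotic ones. Hypoosmotic replicate 4 was the 1 hypoosmotic array that reached the normoosmotic range, above normoosmotic replicate 2. The log2 change was −0.35 with a 95% interval of −0.61 to −0.08, which leaves out 0, but the adjusted p was 0.187 (limma). Its other probe set (10840632) overlapped widely, at 5.47 ± 0.13 and 5.37 ± 0.09 (SD, n = 4 each), with a change of −0.10 (95% interval −0.34 to 0.14).

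**Figure D2:**
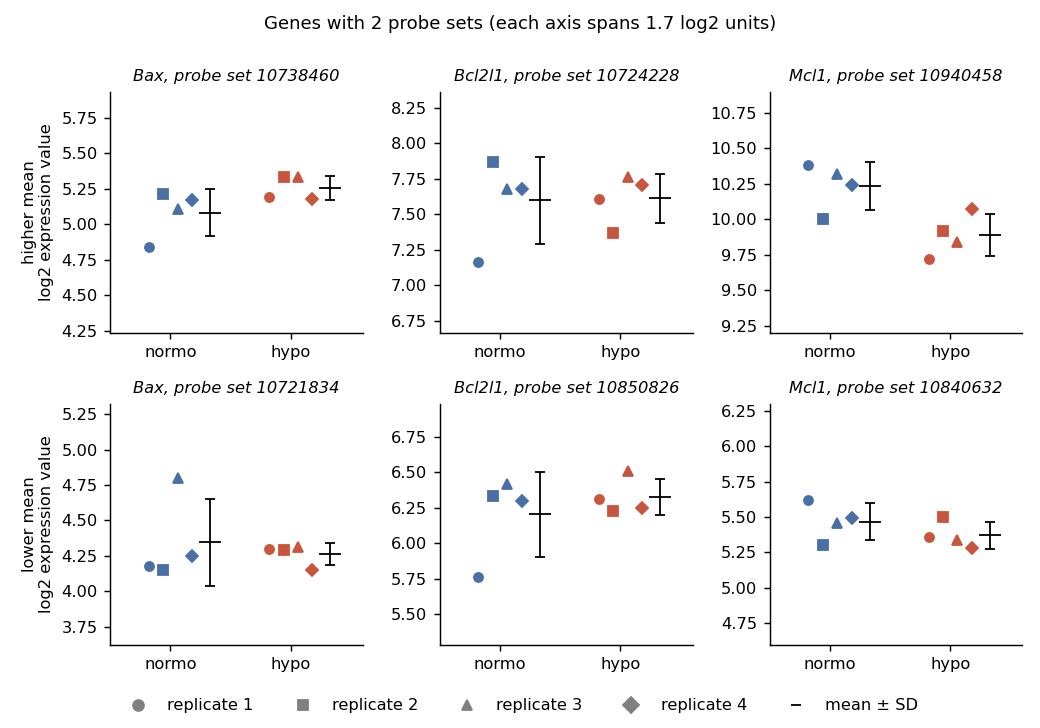
Log2 expression value on the 8 arrays for the 3 genes with 2 probe sets, with the probe set of higher mean in the top row. Points are arrays (blue normoosmotic, red hypoosmotic, shape by replicate number) and bars are the mean ± SD of 4 arrays. The lower values of Mcl1 in hypoosmotic samples are seen in the top probe set, while the bottom one overlaps between groups.

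The probe sets of these 3 genes may read different transcripts. Numbers of probe sets on this platform run along chromosomes: for 94.8% of 15259 named probe sets, the gene lay on the chromosome most frequent among the 20 nearest named probe sets by number. For the Bcl2l1 probe set used here, 0 of 20 neighbours lay on the chromosome of Bcl2l1 and all 20 on that of the pseudogene Bcl2l1-ps1. The lower Bcl2l1 probe set had 18 of 20 on the gene's own chromosome. For Bax the probe set used had 0 of 20 neighbours on the gene's chromosome and the other one 20 of 20. In neither case was the most frequent chromosome that of the pseudogene Bax-ps1. The annotation lists a RefSeq transcript for the Bax probe set used and none for the other. For Bcl2l1 the reverse holds, with RefSeq transcripts listed only for the lower probe set. The dimmer Mcl1 probe set had 17 of 20 on the chromosome of Mcl1-ps1, while the brighter one, like that of Bbc3, lay among probe sets of mixed chromosomes. What each probe set binds was not tested, so the values of Bax and Bcl2l1 can include transcripts of other loci.

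Of the genes that act on the cell cycle and on p53, none of the 3 passed the test, and Cdkn1a and Ccng1 lay on opposite sides. Cdkn1a (probe set 10828827), which encodes the cyclin-dependent kinase inhibitor p21, read 6.43, 7.36, 6.59 and 7.24 in normoosmotic samples and 7.44, 7.61, 7.37 and 7.43 in hypoosmotic ones. All hypoosmotic values lay above the normoosmotic ones, by 0.01 log2 units at the closest, while the normoosmotic samples spread widely among themselves. The means were 6.90 ± 0.46 and 7.46 ± 0.10 (SD, n = 4 each), a log2 change of 0.56 (95% interval 0.15 to 0.96; limma, adjusted p = 0.162).

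Clock genes also spread widely over the normoosmotic samples, with the same 2 arrays apart from the others. Bmal1, an activator of the circadian clock chosen here after its values were seen, read 4.85, 7.18, 4.75 and 7.32 in normoosmotic replicates 1 to 4 and between 6.42 and 7.15 in hypoosmotic samples. Cdkn1a was low on the same 2 arrays as Bmal1, normoosmotic replicates 1 and 3, and so was Bbc3. The clock gene Npas2 was also low on those 2 arrays, while Dbp and Per3 were high on them. Dbp read 8.89, 6.22, 9.04 and 6.31 in normoosmotic replicates 1 to 4. With the clock score as a covariate (Bmal1 and Npas2, averaged, less the average of Dbp and Per3), the change of Cdkn1a was 0.34 ± 0.13 (SE; limma, adjusted p = 0.289) and that of Bbc3 −0.09 (0.883). The change of Pmaip1 was 0.75 with that covariate, with an adjusted p of 0.0804. Without normoosmotic replicate 1 alone, Cdkn1a had a change of 0.40, and without replicate 3 alone, 0.45.

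**Figure D3:**
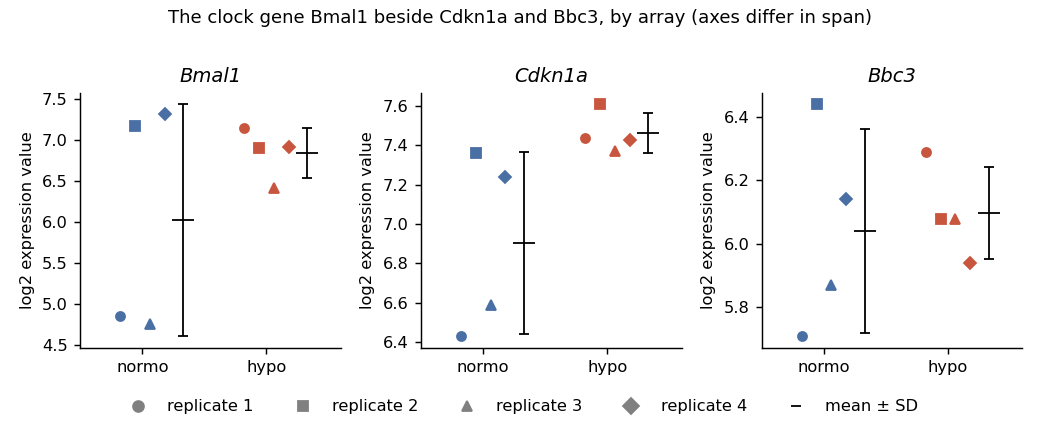
Log2 expression value of Bmal1, Cdkn1a and Bbc3 on each array, with axes of different span. Points are arrays (blue normoosmotic, red hypoosmotic, shape by replicate number) and bars are the mean ± SD of 4 arrays. Normoosmotic replicates 1 and 3, the circle and the triangle, are the lowest arrays in all 3 panels.

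Mdm2 (probe set 10902564), the ubiquitin ligase that degrades p53 and is itself a p53 target, read 7.12, 7.03, 7.22 and 6.85 in normoosmotic samples and 7.30, 7.32, 7.07 and 7.14 in hypoosmotic ones. The groups overlapped, and the log2 change was 0.15 (95% interval −0.10 to 0.41; limma, adjusted p = 0.624). Without normoosmotic replicate 4, the lowest array, it was 0.08.

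Ccng1 (probe set 10742145), which encodes cyclin G1, a p53 target that acts back on Mdm2, read 9.35, 9.23, 9.58 and 9.41 in normoosmotic samples and 8.94, 8.82, 8.95 and 9.22 in hypoosmotic ones. All hypoosmotic values were lower, hypoosmotic replicate 4 by only 0.01. The means were 9.39 ± 0.15 and 8.98 ± 0.17 (SD, n = 4 each), a log2 change of −0.41 (95% interval −0.68 to −0.14; limma, adjusted p = 0.114). Its adjusted p ranged from 0.0583 to 0.305 over 17 alternative fits, and it was not called in any of them.

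**Figure D4:**
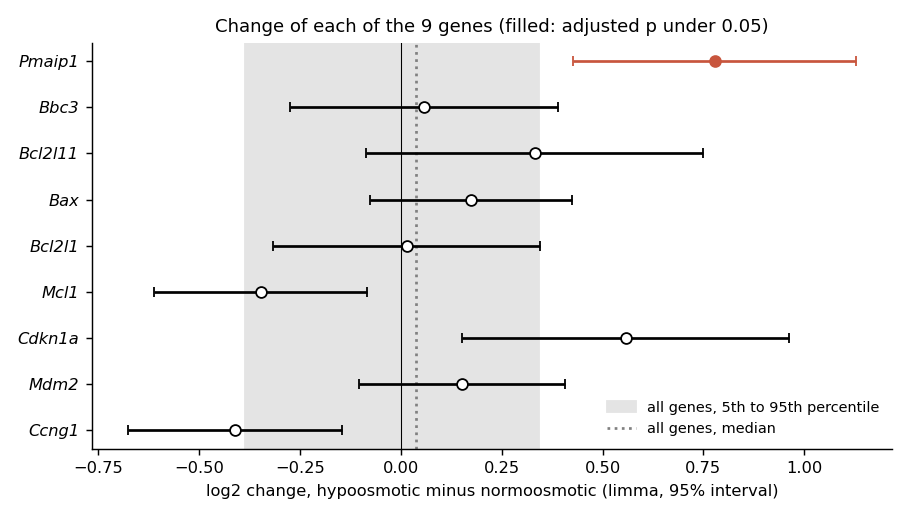
Log2 change of each of the 9 genes, hypoosmotic minus normoosmotic, with its 95% interval from the limma fit. The grey band spans the 5th to 95th percentile of all genes, from −0.39 to 0.34, and the dotted line is their median of 0.04. Pmaip1, the filled point, is the 1 gene called, and the intervals of Cdkn1a, Mcl1 and Ccng1 also leave out 0.

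Set side by side, 7 of the 9 changes were above 0 and 2 below, with a median of 0.15, against 8507 above and 5999 below with a median of 0.04 among all genes. An unadjusted p under 0.05 was reached by 2 above 0, Pmaip1 and Cdkn1a, and by 2 below, Mcl1 and Ccng1, where 6.6% and 7.97% of all genes did. The groups did not overlap in 2 that were higher, Pmaip1 and Cdkn1a, and in 1 that was lower, Ccng1, where 3.21% and 5.05% of all genes were apart in those directions. The 3 genes that act on the cell cycle and on p53, Cdkn1a, Mdm2 and Ccng1, had changes of 0.56, 0.15 and −0.41. None of these 3 passed the test, but they are not all the p53 targets among the 9. Differences between these genes were not tested.

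The genes whose values over the 8 arrays were most like those of Pmaip1 were Ilvbl (Pearson r = 0.976), the autophagy protease gene Atg4b (0.976) and Bspry (0.968). Taken as deviations from the group means, their correlations with Pmaip1 were 0.91, 0.93 and 0.92, so they were also low in hypoosmotic replicate 1 among hypoosmotic samples. Their changes were smaller, at 0.25, 0.12 and 0.34, and did not pass the test. The 8 arrays share a group structure, and these 3 are the highest of 14505 correlations, so they describe likeness only.

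Among the other members of the Bcl2 family, 1 of 16 was called lower and 0 higher, where 1.42% and 0.558% of all genes were. Bcl2a1, an anti-apoptotic NF-kappaB target found mainly in blood cells, read 7.07, 6.87, 7.09 and 6.84 in normoosmotic samples and 5.97, 6.51, 6.29 and 6.26 in hypoosmotic ones. The groups did not overlap, and its log2 change was −0.71 ± 0.13 (SE), 0.611 times the normoosmotic level (limma, adjusted p = 0.0168). The call was lost without normoosmotic replicate 1 (change −0.68, adjusted p = 0.0537), without normoosmotic replicate 3 (−0.67, 0.0602) and under the clock covariate (−0.64, 0.056), with changes close in size to that of all 8 arrays. Fewer cells of a type and less RNA per cell cannot be told apart in whole liver. Of 9 measured macrophage markers 0 passed the test, and their mean ranged from 6.43 to 6.94 in normoosmotic and from 6.53 to 7.13 in hypoosmotic samples. Of 7 neutrophil and lymphocyte markers 0 passed, with a mean of 3.32 to 3.38 and 3.22 to 3.60. The lowest of these, S100a8, averaged 1.65, near the bottom of the array's scale, which has no true 0. Their part in the change of Bcl2a1 was not tested.

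The remaining family members had values on both sides of 0. Bcl2, the founding anti-apoptotic member, had a change of 0.44 (95% interval 0.05 to 0.83) and the effector Bak1 one of 0.20, neither past the test. All 5 further BH3-only genes were above 0, with a median of 0.17, where 8507 of all 14506 genes were above 0. The 95% intervals of Bad, Bik, Bmf and Hrk spanned 0, and Bik was dim, with a mean of 2.79. The highest of the 5 was Bid, which links death receptors to mitochondria, at 0.40 (limma, adjusted p = 0.13). It read 7.59, 7.85, 7.61 and 7.31 against 7.92, 7.95, 8.07 and 8.01, without overlap. The mitophagy receptors Bnip3 and Bnip3l had changes of −0.05 and −0.29, also not called.

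Of 34 further p53 target genes listed, 23 were measured, 0 were called higher and 1 lower, where 0.558% and 1.42% of all genes were, and their median change was 0.11. Gdf15, a secreted stress cytokine that p53 and the Atf4 pathway induce, averaged 6.94 ± 0.30 in normoosmotic and 5.92 ± 0.56 in hypoosmotic samples (SD, n = 4 each) and fell by 1.02 ± 0.24 log2 units (SE; limma, adjusted p = 0.0444). Hypoosmotic replicate 3, at 6.67, lay inside the normoosmotic range of 6.65 to 7.35, and the others lay between 5.34 and 5.89. The call held in 5 of 17 alternative fits. It was lost without each array in turn except hypoosmotic replicate 3, with adjusted p-values of 0.108, 0.068, 0.0688 and 0.0956 without normoosmotic replicates 1 to 4 and of 0.0985, 0.143 and 0.0681 without hypoosmotic replicates 1, 2 and 4. The highest value was that of Rrm2b, a ribonucleotide reductase subunit, at 0.67 (95% interval 0.05 to 1.29; adjusted p = 0.298). An unadjusted limma p under 0.05 was reached by 4 of the 23 above 0 and 2 below, where 6.6% and 7.97% of all genes did. Besides Rrm2b and Gdf15, these were Perp at 0.41, Ei24 at 0.40, Cd80 at 0.42 and Aen at −0.37, none of them called. Others lay near 0, such as the growth arrest gene Gadd45a at 0.04 and the kinase gene Plk3 at −0.02.

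**Figure D5:**
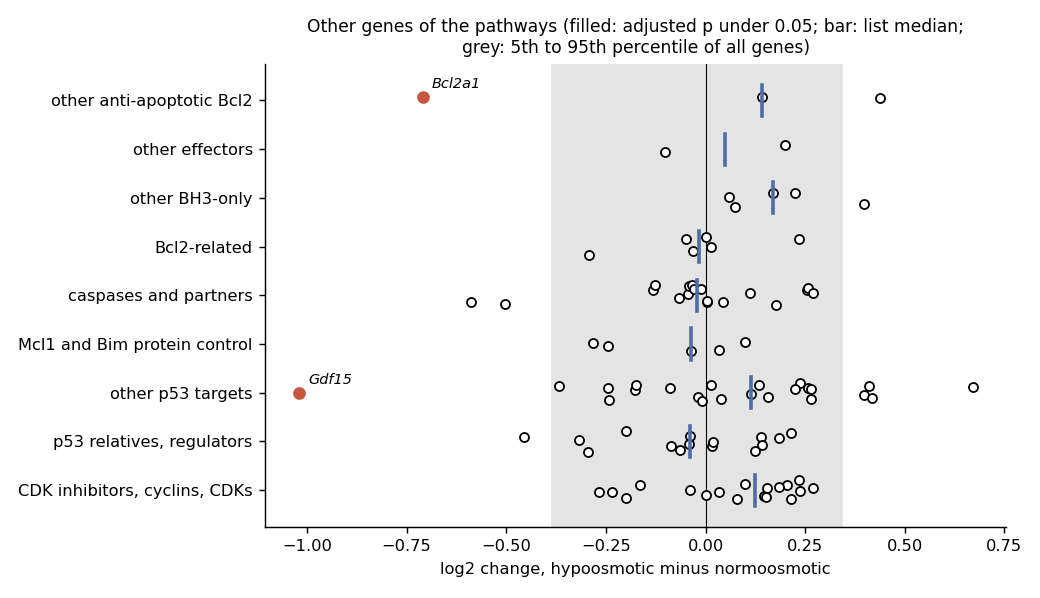
Log2 change, hypoosmotic minus normoosmotic, of the measured genes of 9 pathway lists. Each point is a gene, filled where its adjusted p is under 0.05, the blue bar is the list median and the grey band the 5th to 95th percentile of all genes. The called genes are Bcl2a1 at −0.71 and Gdf15 at −1.02.

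The regulators of p53 and the death machinery held 0 called genes, where 0.558% of all genes were called higher and 1.42% lower. With shares this small, lists of this length can hold 0 calls without differing from all genes. Of 22 listed relatives and regulators of p53, 15 were measured, with a median of −0.04. Hipk2, a kinase that activates p53, was the lowest at −0.45 (limma, adjusted p = 0.0695), with 7.68, 7.52, 7.50 and 7.66 in normoosmotic against 7.29, 6.91, 7.08 and 7.26 in hypoosmotic samples. Of 18 measured genes of caspases and their partners, with a median of −0.02, Casp2 had a change of −0.59 (adjusted p = 0.0653) and Ripk1, a kinase of death receptor signalling, one of −0.50 (0.0829). The Smac gene Diablo and the mitochondrial nuclease gene Endog were at 0.26 and 0.27. Among 5 genes that control Mcl-1 or Bim protein, Usp9x, which stabilises Mcl-1, was the lowest at −0.28. Of 18 measured CDK inhibitors, cyclins and kinases, the changes ran from −0.27 for Ccng2 to 0.27 for Cdk1.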

How the data were processed

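Arrays of 8 samples of perfused liver were analysed. The authors deposited log2 expression values, and the scale was read from their range (0.88 to 13.26, array medians 4.05 to 4.16). Per the submitters' processing notes the software was Transcriptome Analysis Console version 4.0. How probes were summarised and arrays normalized is not given in the sources used here. With 4 arrays in each group, their number sets the precision. Dim values can be background, since the table carries no detection calls.

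Of the probe sets, 15310 had 1 symbol, 323 several and 11963 none, and symbols were updated by gene ID with the RefSeq table of GRCr8 (15279 matched). The groups were compared by lmFit and eBayes of limma (version 3.58.1, under R 4.3.3), two-sided and with no term beside the group, with Benjamini-Hochberg adjustment over 14506 genes and calls at an adjusted p under 0.05. In simulated data of these 14506 genes, 34% of changes of 0.5 log2 units, 88.8% of 1 unit and 97.3% of 1.5 units were recovered, and 4.13% of calls were false. The simulated noise was normal and independent between genes, without any spread that genes share across arrays, such as that of the clock genes. These rates therefore describe the simulation and were not tested on the real arrays. The genes and lists were chosen with earlier results of these data known. Named were the 9 genes with all values, the called genes of the pathway lists (up to 3 per direction) and the 3 genes most correlated with a called member. Other genes were named after their values were seen. The fit was repeated after quantile normalization, on values less the array median, without the dimmest 25% of genes, with array weights, with a prior both robust and trended, with a replicate block, on all probe sets, on means over probe sets, with the clock covariate, at an adjusted p under 0.1, and without each array in turn. The other probe set, and the alternatives for the pathway lists, were added after seeing the data.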

Additional observations from a re-analysis of the deposited data

How the results depend on the processing

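The number of the 9 genes called was 1 in the reported fit and 0 to 1 when 1 array was left out. It was 0 with the clock score as a covariate and 1 in the other 8 alternative fits and at an adjusted p under 0.1. With the replicate number as a block it was again 1, and the count over all genes was 256 against 287. The deviations of same-numbered samples correlated at 0.05, 0.03, 0.08 and 0.17, and 3 of 8 samples correlated best with their own number, so the numbers were not taken as pairs.

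Over all genes the count was 92 with the clock score, 81 to 365 when 1 array was left out, and 601 at an adjusted p under 0.1. Of the other pathway genes 2 were called, against 1 after quantile normalization, with the trended and robust prior, with the replicate block and over all probe sets, 0 with the clock score, 5 at an adjusted p under 0.1, and 0 to 2 when 1 array was left out. The sign of changes near 0 turned for Bbc3 with the clock score (−0.085) and when 1 array was left out (from −0.052 to 0.191). It turned for Bcl2l1 with array medians subtracted (−0.027), array weights (−0.01), the clock score (−0.048) and 1 array left out (from −0.131 to 0.106), and for Bax with its other probe set (−0.082). The sign of the remaining 6 genes was the same in all 17 fits. The causes were not tested. Signal over background was not available to set a floor.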

Other observations

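By the rule chosen after the windows of Cdkn1a and Ccng1 were seen, the p53 element was present upstream of 40 genes by symbol, of which 16 were measured. Their changes had a median of 0.07, with 10 above 0 and 6 below, and 0 passed the limma test in either direction. The lowest of the 16 was Ccng1 at −0.41 and the highest Cdkn1a at 0.56, the 2 genes whose windows were seen beforehand. Pmaip1, which was called, is not among the 16, because its looser match falls outside the rule. The count of 0 therefore depends on the rule, and no conclusion on p53 elements is drawn from it. The variant TTACGTCA was upstream of 234 genes by symbol, of which 101 were measured, Pmaip1 among them. Their changes had a median of 0.003, with 52 above 0 and 49 below, and 3 were called higher and 2 lower. Pmaip1 is 1 of the 3 called higher, and the variant was chosen after its window was seen. The count of 3 is therefore not independent of that choice. Among all genes 0.558% were called higher and 1.42% lower.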
